A study of Mus musculus with 12 samples.

Results

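Cells of collecting lymphatic vessels (col LEC) were set against cells of blood vessels (BEC), both sorted from the same kind of tissue, mouse ear skin. The comparison used the 3 arrays titled col LEC and the 3 titled BEC, 6 of the 12 arrays of the series, and covered every gene with a row of its own that rose above the array median on at least 3 arrays (19667 genes). All mice were C57BL6, were labelled adult with a stated age of 5 weeks, received no treatment named in the labels, and carried the reporter transgene Tg(Prox1-EGFP)KY221Gsat, in which regulatory sequence of Prox1 drives a green fluorescent protein. Endothelial cells were first enriched on beads that bind PECAM1. Cells positive for podoplanin (PDPN) and the reporter were taken as lymphatic. Those low or negative for LYVE1 were called col LEC, those intermediate for it pre-collecting cells (pre-col LEC) and those high for it capillary cells (cap LEC). BEC carried PECAM1 and lacked PDPN, the reporter and LYVE1, and were not divided by vessel type. The labels call the 3 arrays of a group biological replicates without saying whether each was 1 mouse or a pool, so that the p-values measure the spread between these samples, which may be partly technical.

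Lymphatic endothelium arises mainly from embryonic veins when the transcription factor PROX1 turns on in vein cells, and PROX1 is needed throughout life to keep the lymphatic state. Collecting lymphatic vessels carry lymph from the initial capillaries towards the lymph nodes. They have valves, a continuous basement membrane, tight cell contacts and a coat of muscle cells, features in which they look more like small veins than lymphatic capillaries do. Blood capillaries of the skin exchange water, lipids and hormones with the tissue, and the small veins next to them are where leukocytes leave the blood.

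The values are log2 RMA values, so that a difference of 1 is a 2-fold ratio, and levels are not compared between genes. Across the genes tested, arrays correlated at 0.983 to 0.988 within col LEC, at 0.971 to 0.98 within BEC and at 0.911 to 0.923 between the groups. The median gene differed by -0.003 between the groups. The negative-control rows had a 95th percentile of 8.917 to 9.343 on these arrays. A level under 8.917 is therefore not distinguishable from background hybridisation, and the ratio of a gene with such a level in 1 group may be understated. Where both groups lie there, as for F8, Rspo3, Itga2, Itih2 and Ahsg below, neither a difference nor a likeness is well measured. Other genes below also had both group means under 8.917, among them Foxp2, Gata6, Pcdh7, Lsr, Bmp4, Esm1, Gkn3, Edn1, Psmb8 and Psmb9.

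Collecting lymphatic and blood endothelium differed in a large minority of genes. In a limma fit over all 12 arrays with Benjamini-Hochberg adjustment, 3203 genes were called at an adjusted p under 0.05, 16.3% of those tested. Of these, 1639 were higher in col LEC (8.33%) and 1564 were lower (7.95%). A difference of at least 2-fold was called for 980 genes (4.98%), with 417 higher in col LEC (2.12%) and 563 lower (2.86%). The far end of the distribution was heavier on the blood side, since 31 genes were at least 16-fold lower in col LEC and 13 were at least 16-fold higher. For 12454 genes (63.3%) the 95% interval of the difference lay inside -0.5 to 0.5, and these are called alike here. A small difference can also pass the test, so that 166 genes were both called and alike. The shares of 16.3% called and 63.3% alike are the background for the counts of list members given below. A list with a share of alike members near or under 63.3% is no more alike than genes in general. Among the 4917 genes with a mean level above the upper quartile of 8.766, 2642 were alike (53.7%) and 1251 were called (25.4%). Of the called ones 743 were higher and 508 lower in col LEC. The signal is strongest in these genes, although the cut-off is still just under the 95th percentile of the negative controls. The split of calls by direction depends on the scaling, with 51.2% of calls on the lymphatic side in the values as deposited and 42.6% after cyclic loess.

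**Figure D1:**
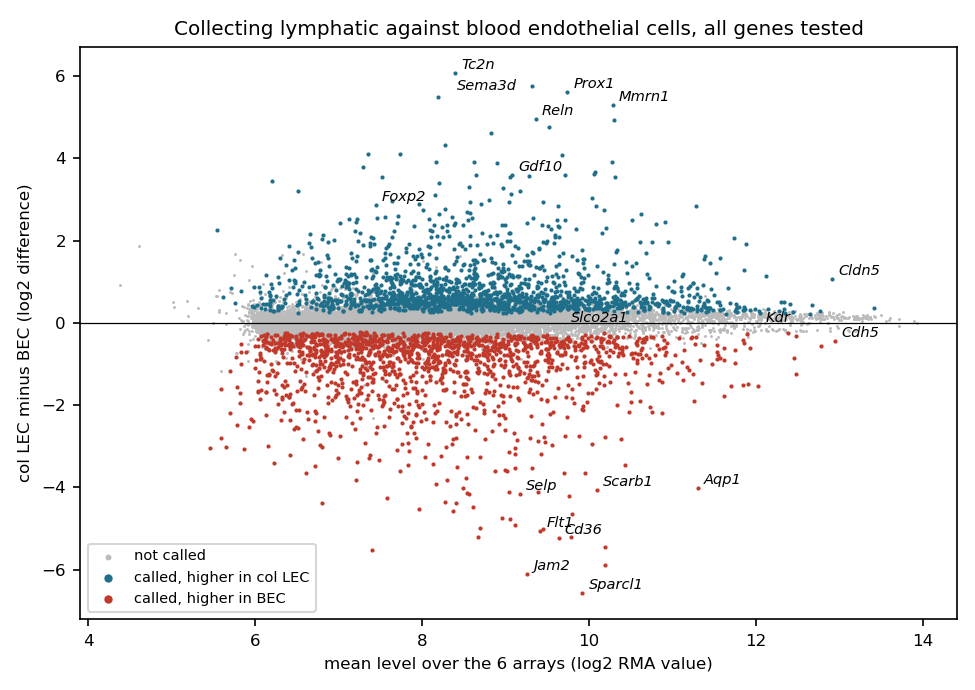
Each point is 1 of the 19667 genes tested, with its mean level over the 6 arrays (log2 RMA value) on the x axis and the log2 difference, col LEC minus BEC, on the y axis. Blue points are the 1639 genes called higher in col LEC, red points the 1564 called lower, grey points were not called, and the called genes reach further below 0 than above it.

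The genes that define the sort came first, as a check of the labels. Because they chose the cells, their differences are described and support nothing further. Prox1 (transcript cluster TC0100003791.mm.1) stood at 12.53, 12.51 and 12.60 in col LEC and at 7.55, 6.70 and 6.55 in BEC. Pdpn, which encodes the membrane glycoprotein podoplanin, stood at 11.73, 11.93 and 12.02 in col LEC and at 7.32, 6.86 and 7.24 in BEC. Lyve1, a hyaluronan receptor, stood at 10.20, 10.30 and 10.84 in col LEC and at 7.30, 6.65 and 6.57 in BEC, although col LEC were the lymphatic cells with the least LYVE1 protein. In each of these genes the lowest col LEC array lay above the highest BEC array. Pecam1, the adhesion molecule on which both groups were enriched, was close to equal, at 12.26, 12.28 and 12.25 in col LEC and 12.62, 12.51 and 12.40 in BEC. Its difference was -0.25 ± 0.07 (SE) with a 95% interval of -0.41 to -0.09. The small difference of Pecam1 passed the test (adjusted p = 0.0351) but not with the replicate number as a block (0.0574), nor when any array but BEC replicate 3 was left out, where the adjusted p reached 0.108 without col LEC replicate 3.

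Lymphatic identity genes were far higher in collecting cells. Of 21 tested, 18 were higher, 0 lower and 1 alike, with a median difference of 3.604 against -0.003 over all genes. Prox1, Pdpn and Lyve1, which chose the cells, are on this list, and without them 15 of 18 were higher and 0 lower, with a median difference of 2.94. None of the 21 was lower at an unadjusted p under 0.05 either, and the same held for the counts of 0 given further on for mural, interferon and antigen presentation genes that were higher. In bulk samples, fewer cells of a type and less RNA per cell cannot be told apart. Sema3d, a secreted axon guidance cue, stood at 12.22, 12.19 and 12.18 in col LEC and at 7.49, 5.44 and 6.39 in BEC, a difference of 5.76 ± 0.35 (SE, adjusted p = 2.22e-07). Mmrn1, a secreted multimeric glycoprotein, stood at 12.92, 12.91 and 12.96 in col LEC and at 9.84, 6.55 and 6.52 in BEC. Reln, the matrix glycoprotein reelin, stood at 11.75, 11.86 and 11.91 in col LEC and at 7.81, 6.31 and 6.54 in BEC. The col LEC arrays lay close together in these genes, while the BEC arrays were spread out, with BEC replicate 1 the highest each time. That pattern was general: of the 18 members called higher, 14 had their highest BEC value on BEC replicate 1, 1 on replicate 2 and 3 on replicate 3. The median level of the 18 in BEC was 8.32, 7.15 and 7.54 on replicates 1, 2 and 3. Without BEC replicate 1 the same list again had 18 higher and 0 lower members, with a median difference of 3.83. The difference of Mmrn1, 5.29 ± 0.65 (SE, adjusted p = 9.03e-05) over all arrays, became 6.40 without it. No other called gene named here moved by more than 1.5-fold when 1 of the 6 arrays was left out, and genes that were not called were not checked for this.

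Flt4, the receptor for the lymphatic growth factor VEGF-C, differed less than the secreted proteins, and BEC also had a clear signal. It stood at 12.01, 12.23 and 12.19 in col LEC and 9.64, 9.57 and 9.84 in BEC (2.46 ± 0.11, SE, adjusted p = 1.31e-08). Nrp2, its co-receptor, did not separate the groups, at 10.63, 11.28 and 11.18 in col LEC and 10.95, 11.07 and 10.86 in BEC (95% interval -0.30 to 0.45). Nr2f2, a vein and lymphatic transcription factor, differed by 1.45 ± 0.13 (SE, adjusted p = 8.09e-06). The 2 list members that neither passed the test nor met the criterion for alike were Stab2, at 0.28, and Sox18, at -0.22. Sox18 is a transcription factor that acts upstream of PROX1 in the embryo.

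The genes with the largest lymphatic excess included several that are not on the classical list. Tc2n, which encodes a protein with tandem C2 domains (transcript cluster TC1200002241.mm.1), led the ranking at 11.31, 11.49 and 11.51 in col LEC and 5.66, 5.65 and 4.76 in BEC (6.08 ± 0.19, SE, adjusted p = 1.44e-09). Pkhd1l1, a large membrane protein related to fibrocystin, stood at 10.86, 10.97 and 10.99 in col LEC and 6.05, 4.99 and 5.30 in BEC. Pard6g, an adaptor of the cell polarity complex, stood at 12.69, 12.81 and 12.78 in col LEC and 8.45, 7.29 and 7.74 in BEC. These genes were picked for a wide difference without overlap between the groups. The transcription factor Maf and the peptide neurotensin (Nts) differed by 4.62 ± 0.12 and 4.32 ± 0.21 (SE). Further down came Tnfaip8l3, a phosphoinositide-binding protein (4.11 ± 0.11), Cp, the copper-carrying ferroxidase ceruloplasmin (4.09 ± 0.25), and Fam180a (3.92 ± 0.20). Klrb1f, a receptor of the natural killer lectin family whose close copies can share probes, differed by 4.10 ± 0.25. Klrb1f was also graded within the lymphatic cells, with 9.50, 9.28 and 9.42 in col LEC against 7.31, 7.19 and 6.73 in cap LEC (2.32 ± 0.25, adjusted p = 4.41e-04). Of all genes tested, 1.65% were called between col and cap LEC and 0.28% between col and pre-col LEC. Pkhd1l1 and Nts were also called between col and cap LEC, at 0.92 ± 0.20 and 0.93 ± 0.21 (adjusted p = 0.0458 and 0.0495), and Tc2n, Pard6g, Maf, Tnfaip8l3, Cp and Fam180a were not.

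**Figure D2:**
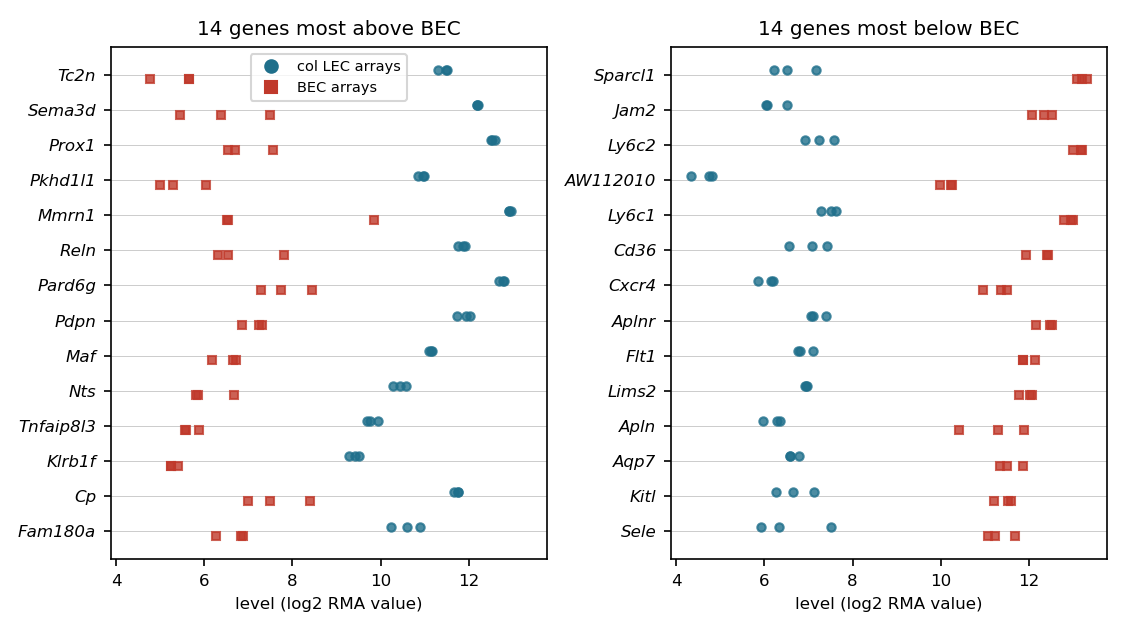
The x axis gives the log2 RMA value on each array and each line is 1 gene, with col LEC arrays as blue circles and BEC arrays as red squares (3 each). The left panel shows the 14 genes with the largest called excess in col LEC and the right panel the 14 with the largest deficit. The 28 genes were picked for no overlap between the groups, and BEC replicate 1 sets Mmrn1 apart at 9.84 against 6.55 and 6.52.

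Most valve and collecting vessel genes were higher in collecting cells than in blood endothelium. Of 27 tested members of that list, 17 were higher in col LEC and 3 lower, with a median difference of 0.518. Gdf10, a ligand of the TGF-beta family, stood at 10.90, 10.89 and 10.85 in col LEC and 6.65, 7.44 and 7.73 in BEC (3.61 ± 0.23, SE, adjusted p = 2.93e-07). Sema3a, a secreted guidance cue that acts in valve formation, stood at 9.75, 9.96 and 10.03 in col LEC and 6.35, 6.29 and 6.87 in BEC. Foxp2, a forkhead transcription factor, stood at 8.83, 8.83 and 8.98 in col LEC and 6.18, 5.78 and 6.06 in BEC. Cldn11, a tight junction protein, stood at 10.83, 10.87 and 10.71 in col LEC and 8.48, 8.52 and 8.44 in BEC. All 4 were separated without overlap, and Gdf10, Foxp2 and Cldn11 were also higher in col than in cap LEC, by 2.07 ± 0.23, 0.99 ± 0.10 and 1.59 ± 0.14 (SE, adjusted p = 5.70e-04, 3.85e-04 and 1.08e-04). Sema3a was not called in that comparison (0.40 ± 0.15, adjusted p = 0.333). Foxc2 and Nfatc1, transcription factors needed for valves, exceeded BEC by 1.19 ± 0.14 and 1.22 ± 0.08 (SE, adjusted p = 5.22e-05 and 5.84e-07). The list held members at like levels too: Cav1, Gata2, Gja1, Procr and Vangl2 were alike. Gja1, a connexin of valve cells, had a 95% interval of -0.37 to 0.25, at mean levels of 8.783 and 8.841 that are in the range of the negative controls. Gata2, a transcription factor of valve formation, had one of 0.04 to 0.41. The 3 members lower in col LEC were Esam (-2.28 ± 0.17), Clec14a (-2.05 ± 0.19) and Lama5 (-1.50 ± 0.13), all adhesion or matrix genes. Without BEC replicate 1, 15 members of this list were higher and 3 lower.

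Among 52 endothelial transcription factors, 18 were higher in collecting cells, 13 were lower and 13 were alike, with a median difference of 0.023. The called share was 59.6%, against 16.3% of all genes tested, of which 63.3% were alike. The sort gene Prox1, Maf and Foxp2 were among those higher, as was Gata6, at 8.41, 8.37 and 8.45 in col LEC and 7.57, 7.26 and 7.67 in BEC. On the blood side the factor with the largest difference was Sox17, which acts in arterial cells, at 6.40, 6.28 and 6.43 in col LEC and 9.33, 9.39 and 9.12 in BEC (-2.91 ± 0.13, SE, adjusted p = 1.31e-08). Meox2, a factor of capillary cells that handle fatty acids, differed by -2.43 ± 0.15 and Epas1, the hypoxia-regulated factor HIF-2 alpha, by -1.25 ± 0.08 (SE, adjusted p = 1.84e-07 and 4.30e-07). Klf4, which responds to flow, had 11.51, 11.51 and 11.59 in col LEC and 11.59, 11.41 and 11.70 in BEC with a 95% interval of -0.26 to 0.20. Klf6 and Elk3 were alike as well, with intervals of -0.25 to 0.12 and -0.10 to 0.46. The ETS factors Fli1 and Ets1 were lower in col LEC, with differences of -0.53 ± 0.11 and -0.58 ± 0.11 (adjusted p = 0.00655 and 0.00288), while Erg, at -0.28 ± 0.12, was not called.

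Endothelial genes in general were not uniformly shared. Of 29 pan-endothelial genes, 16 were lower in col LEC, 5 were higher and 8 were alike, with a median difference of -0.44. These counts overlap, since Pecam1, for example, was both called lower and alike, and 3 genes were neither called nor alike. Kdr, the main VEGF receptor, had 11.86, 12.09 and 12.05 in col LEC and 12.12, 12.08 and 12.03 in BEC, with a 95% interval of -0.27 to 0.11. Tie1, the orphan partner of the angiopoietin receptor, had an interval of -0.07 to 0.40. S1pr1, the sphingosine-1-phosphate receptor that stabilises vessels, had one of -0.24 to 0.09. The arrays of the groups overlapped in all 3 genes. After cyclic loess S1pr1 was called lower in col LEC, at -0.22. At the other end, Cd34, a sialomucin that coats blood endothelium, stood at 7.56, 7.54 and 7.86 in col LEC and 11.84, 11.96 and 11.82 in BEC, a difference of -4.22 ± 0.27 (SE). Vwf, the platelet-binding protein stored in endothelial granules, stood at 7.84, 7.52 and 7.28 in col LEC and 10.98, 11.14 and 11.12 in BEC, a difference of -3.53 ± 0.16. Esam, a junctional immunoglobulin protein, stood at 8.66, 8.87 and 8.24 in col LEC and 10.81, 10.95 and 10.85 in BEC. The junctional cadherin Cdh5 was slightly lower in col LEC (-0.45 ± 0.08, SE, adjusted p = 0.00194) and the tight junction protein Cldn5 higher (1.07 ± 0.13, adjusted p = 9.21e-05).

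Blood capillary genes had the lowest median difference of all the lists. Of 26 tested, 19 were lower, all of them by at least 2-fold, and 3 were higher, with a median difference of -2.06. Cd36, a fatty acid transporter, stood at 7.07, 7.42 and 6.56 in col LEC and 12.41, 12.42 and 11.93 in BEC (-5.24 ± 0.39, SE, adjusted p = 1.20e-06). Aplnr, the receptor for the peptide apelin, stood at 7.06, 7.39 and 7.09 in col LEC and 12.16, 12.52 and 12.48 in BEC. Apln, apelin itself, a gene of sprouting blood vessel tips, stood at 6.28, 5.96 and 6.35 in col LEC and 10.41, 11.88 and 11.29 in BEC. These genes were picked for a wide difference without overlap, and Apln varied more among the BEC arrays than the others did. Cxcl12, a chemokine, stood at 6.99, 6.86 and 7.12 in col LEC and 11.27, 11.17 and 10.84 in BEC. Rgcc, Car8 and Timp4 were also lower, at -3.61, -2.96 and -2.77 (adjusted p = 1.13e-07, 6.99e-08 and 2.30e-07). Kdr and Cav1, which the list also holds, were alike, and Prss23, Btnl9 and Sgk1 were higher in col LEC, at 1.30, 0.67 and 0.37. Sgk1 was not called without col LEC replicate 2 or 3 or BEC replicate 1 or 3, with an adjusted p of up to 0.154. Leaving out BEC replicate 1 gave 20 lower and 2 higher members.

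The blood genes with the largest differences of all extended beyond that list. Sparcl1, a secreted matrix protein of vessel walls (transcript cluster TC0500002887.mm.1), stood at 7.18, 6.51 and 6.21 in col LEC and 13.32, 13.20 and 13.09 in BEC, the lowest difference of any gene tested (-6.57 ± 0.73, SE, adjusted p = 3.94e-05). Ly6c1 and Ly6c2, surface proteins of blood endothelium that are close copies and can share probes, differed by -5.44 ± 0.36 and -5.89 ± 0.59 (SE). Lims2, an adaptor at integrin contacts, stood at 6.95, 6.92 and 6.96 in col LEC and 12.07, 12.03 and 11.77 in BEC. Kitl, the stem cell factor, stood at 6.27, 7.12 and 6.65 in col LEC and 11.59, 11.53 and 11.20 in BEC. AW112010 stood at 4.33, 4.75 and 4.81 in col LEC and 10.22, 10.26 and 9.98 in BEC. The BEC arrays lay close together in Sparcl1, Lims2, Kitl and AW112010, with the col LEC arrays far below. The naming rule had picked these genes for a wide difference without overlap. Sparcl1 was less even among the lymphatic cells, where the pre-col LEC arrays read 10.42, 8.81 and 6.74. The first of these arrays, pre-col LEC replicate 1, was also the highest of its group in Ly6c2 (10.25, 8.13 and 7.29) and Cd36 (9.13, 7.83 and 7.64). Among the 14 genes with the largest deficit it was also the highest in Jam2, AW112010, Ly6c1, Cxcr4, Aplnr, Flt1, Lims2, Apln and Kitl. Only in Aqp7 and Sele of the 14 was it not the highest. That array is part of the 12-array fit and was not left out singly, and its source was not tested.

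BEC held genes of both veins and arteries, and on both lists more genes were lower than higher in collecting cells. Of 18 venous genes, 11 were lower and 2 higher, with a median difference of -0.961. Selp, the leukocyte-tethering P-selectin, stood at 7.07, 7.0 and 7.19 in col LEC and 11.45, 10.98 and 11.32 in BEC. Sele, E-selectin, stood at 7.52, 5.92 and 6.34 in col LEC and 11.69, 11.06 and 11.24 in BEC. Ackr1, the chemokine-binding receptor of venules, stood at 6.68, 6.52 and 6.51 in col LEC and 9.16, 9.11 and 9.45 in BEC. In Sele, which was picked for no overlap between the groups, col LEC replicate 1 lay well above the other arrays of its group. The 2 venous genes higher in col LEC were Nr2f2 and Tll1, at 1.45 and 1.41, and Il6st, Nrp2 and Slco2a1 were alike. Il6st, the shared receptor chain of interleukin-6 type cytokines, had 12.94, 13 and 12.99 in col LEC and 12.85, 12.85 and 12.75 in BEC. With a variance trend Il6st was called higher, at 0.16 (adjusted p = 0.0232). Of 22 arterial genes, 14 were lower and 5 higher, with a median difference of -1.276. The chemokine receptor Cxcr4 stood at 6.19, 5.86 and 6.14 in col LEC and 10.96, 11.49 and 11.37 in BEC. Gkn3, a marker of arterial endothelium, differed by -2.54 ± 0.33 (SE, adjusted p = 1.31e-04). Notch1 and the netrin receptor Unc5b were alike, with 95% intervals of -0.18 to 0.33 and -0.06 to 0.41. The arterial genes higher in col LEC were Stmn2, Bmx, Fbln5, Efnb2 and Gja4, at 1.49, 1.42, 0.85, 0.62 and 0.37. Gja4 was not called when any array but BEC replicate 3 was left out, with an adjusted p of up to 0.106.

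**Figure D3:**
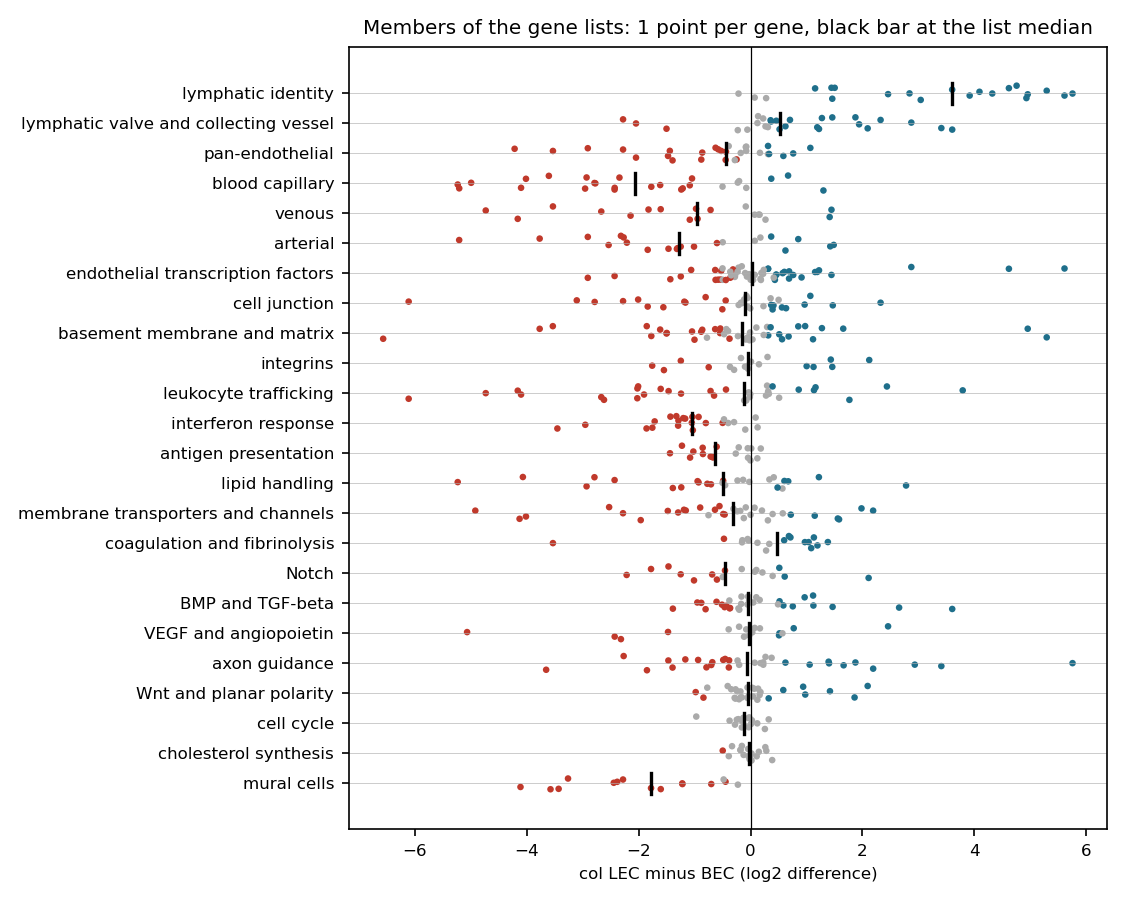
The x axis gives the log2 difference, col LEC minus BEC, and each point is a tested member of the gene list named on the y axis (blue called higher in col LEC, red called lower, grey not called). Black bars mark list medians, which run from 3.604 for lymphatic identity to -2.06 for blood capillary genes. The mural cell list, at the bottom, has its median at -1.78.

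Genes of mural cells, the pericytes and smooth muscle cells wrapped around blood vessels, moved with the blood side. Of 15 in that list, 13 were lower in col LEC and 0 higher. Rgs5, a pericyte gene, differed by -4.11 ± 0.61, the PDGF receptor Pdgfrb by -3.58 ± 0.35, the potassium channel subunit Abcc9 by -3.43 ± 0.25 and smooth muscle actin, Acta2, by -3.26 ± 0.62 (SE). The summed level of the list was 11.06 to 11.16 on the col LEC arrays and 13.32 to 13.59 on the BEC arrays, against 11.03 to 11.48 in cap LEC and 11.24 to 12.54 in pre-col LEC. None of the 15 lay under the array median on all arrays of either group. Their part in the differences of matrix, Notch and channel genes, Sparcl1 and Mgp among them, was not tested. Of 15 macrophage and dendritic cell genes, limma called 0, and 11 were alike. At an unadjusted p under 0.05, 2 of the 15 differed (C1qa and Tyrobp). The summed keratinocyte level was 10.5 to 10.73 in col LEC and 10.83 to 11.13 in BEC. The T cell list summed to 10.47 to 10.57 in col LEC and 9.57 to 9.88 in BEC. Its only called gene, of 5 tested, was Thy1 (1.504), which is also on the lymphatic identity list, and the other 4 were alike. The fibroblast list summed to 11.01 to 11.61 in col LEC and 11.35 to 11.53 in BEC. The neutrophil and mast cell list summed to 9.42 to 9.59 in col LEC and 10.21 to 10.42 in BEC, with Kit as the member that differed most (-2.20 ± 0.17).

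**Figure D4:**
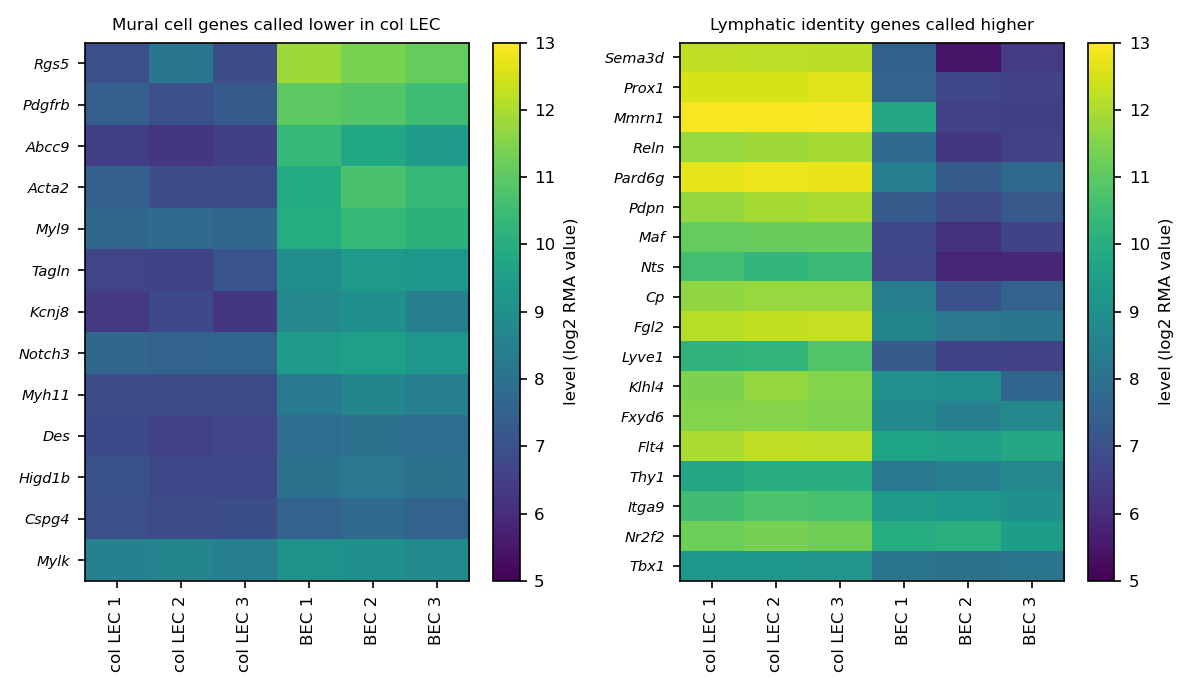
Colour gives the log2 RMA value of each gene (rows) on each of the 6 arrays (columns, labelled with group and replicate number). The left panel shows the 13 mural cell genes called lower in col LEC, dark on the col LEC arrays and lighter on all 3 BEC arrays. The right panel shows the 18 lymphatic identity genes called higher, of which 14 have their highest BEC value on BEC replicate 1.

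Matrix genes divided between the cell types. Of 42 basement membrane and matrix genes, 12 were higher in col LEC, 16 were lower and 9 were alike, with a median difference of -0.156. Calls made up 66.7% of this list, against 16.3% of all genes tested, of which 63.3% were alike. Mmrn1 and Reln headed the lymphatic side and Sparcl1 the blood side. Mgp, an inhibitor of calcification, stood at 6.51, 6.90 and 6.53 in col LEC and 10.14, 10.73 and 10.37 in BEC. The basement membrane collagens Col4a1 and Col4a2 were lower in col LEC, with differences of -1.05 ± 0.12 and -1.62 ± 0.18 (SE, adjusted p = 3.73e-05 and 3.45e-05), and Col15a1, which borders the basement membrane, differed by -3.54 ± 0.13. The summed mural level was higher in BEC too, as given above. Nid1 and Lamc1, core components of the same membrane, were alike. Nid1, which links laminin to collagen, had 11.64, 11.90 and 12 in col LEC and 11.79, 11.92 and 11.86 in BEC with a 95% interval of -0.26 to 0.24. Lamc1, the common laminin gamma chain, had one of -0.32 to 0.21, and Ltbp4, which binds latent TGF-beta, one of -0.09 to 0.30. Fibronectin (Fn1), a ligand of integrin alpha-9 in valves, differed by 1.28 ± 0.11 (SE, adjusted p = 4.78e-06) towards col LEC.

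The integrins that read this matrix also differed. Of 18 tested, 5 were higher in col LEC, 4 lower and 6 alike. Calls made up 50% of this list, against 16.3% of all genes tested, of which 63.3% were alike. Itgb3 stood at 9.45, 9.20 and 9.50 in col LEC and 7.01, 7.32 and 7.46 in BEC (2.12 ± 0.12, SE, adjusted p = 9.80e-08), and its partner Itgav differed by 1.43 ± 0.12. Itga9, the fibronectin and tenascin receptor of valve cells, stood at 10.55, 10.74 and 10.68 in col LEC and 9.36, 9.21 and 9.01 in BEC. Itgb5, the other common partner of Itgav, ran the other way, at 7.0, 6.82 and 6.86 in col LEC and 8.57, 8.75 and 8.64 in BEC (-1.76 ± 0.12, adjusted p = 6.31e-07). Itga2, a collagen receptor chain, differed by -1.55 ± 0.17. Itgb1, the chain shared by most matrix integrins, had a 95% interval of -0.19 to 0.20.

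At cell junctions the families split by member. Of 32 junction genes, 9 were higher in col LEC, 12 lower and 9 alike, with a median difference of -0.094. The called share was 65.6%, against 16.3% of all genes tested, of which 63.3% were alike. Jam2, a junctional adhesion molecule that binds leukocyte integrins, stood at 6.06, 6.52 and 6.03 in col LEC and 12.53, 12.35 and 12.06 in BEC, a difference of -6.11 ± 0.36 (SE). The protocadherins Pcdh17 and Pcdh1 were lower in col LEC, with differences of -3.11 ± 0.29 and -2.79 ± 0.09 (SE, adjusted p = 9.83e-06 and 1.82e-09). Pcdh7, another protocadherin, was higher, at 8.46, 8.31 and 8.41 in col LEC and 6.74, 6.83 and 7.20 in BEC. Pcdh17 differed within lymphatic cells as well, with a col minus cap LEC difference of -1.77 ± 0.29 (adjusted p = 0.0101). The desmosomal proteins Jup and Pkp4 and the membrane-anchored cadherin Cdh13 were alike: Jup had a 95% interval of 0.02 to 0.44, Pkp4 of -0.37 to -0.05 and Cdh13 of -0.39 to 0.04. Pkp4 and Cdh13 were called lower in col LEC after cyclic loess, at -0.33 and -0.32.

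Of 33 tested genes on the leukocyte trafficking list, 16 were lower in col LEC, 13 of them at least 2-fold, 7 were higher and 6 were alike. The list is broader than leukocyte recruitment, and the counts are for the whole list. Besides the selectins, Jam2 and Cxcl12, the adhesion receptors Vcam1 and Icam1 differed by -1.61 ± 0.26 and -0.72 ± 0.14 (SE, adjusted p = 8.25e-04 and 0.00324), and the checkpoint ligand Cd274 by -2.03 ± 0.21. The members higher in col LEC included the cytokine Il7 (3.79 ± 0.09), the mannose receptor Mrc1 (2.44 ± 0.15) and the sphingosine-1-phosphate exporter Spns2 (0.86 ± 0.14). Cd99, which helps leukocytes cross the endothelium, had 10.16, 10.42 and 10.24 in col LEC and 10.07, 10.46 and 10.29 in BEC, with a 95% interval of -0.26 to 0.25.

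Interferon-response genes lay on the blood side without exception in direction among those called. Of 23 tested, 17 were lower in col LEC, 0 were higher and 3 were alike, with a median difference of -1.051. Rsad2, an antiviral enzyme, stood at 6.58, 6.10 and 5.63 in col LEC and 9.54, 9.66 and 9.46 in BEC (-3.45 ± 0.26, SE, adjusted p = 1.22e-06). Iigp1, an immunity-related GTPase, stood at 6.38, 6.98 and 7.27 in col LEC and 10.35, 9.46 and 9.69 in BEC. Ifih1, a sensor of viral RNA, stood at 6.94, 6.79 and 6.56 in col LEC and 8.61, 8.74 and 8.52 in BEC. The groups did not overlap in these genes. Ifit1 differed by -1.76 ± 0.38 (adjusted p = 0.00666). The membrane-resident Ifitm2 and Ifitm3, close copies that can share probes, were bright and alike, with 95% intervals of -0.09 to 0.34 and -0.13 to 0.31. Rsad2 and Iigp1 were not called between col and cap LEC, with differences of -0.11 ± 0.26 and -0.19 ± 0.28 (SE, adjusted p = 0.905 and 0.839).

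Antigen presentation genes that passed the test were all lower in collecting cells. Of 18 genes tested, 10 were lower in col LEC, 0 were higher and 3 were alike, with a median difference of -0.639. The immunoproteasome subunit Psmb10 stood at 8.58, 8.57 and 8.39 in col LEC and 9.54, 10.24 and 10.07 in BEC. Psmb8 and Psmb9, the other immunoproteasome subunits, differed by -1.08 ± 0.17 and -1.02 ± 0.12 (SE, adjusted p = 5.96e-04 and 5.28e-05), and the peptide transporter Tap1 by -1.23 ± 0.19 (6.85e-04). The class I light chain B2m differed by -0.86 ± 0.10 (adjusted p = 4.26e-05). The class II genes H2-Aa, H2-Ab1 and H2-Eb1 had differences of -0.05 ± 0.23, 0.12 ± 0.42 and -0.003 ± 0.53, none of them called.

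Lipid uptake was a further point of difference. Of 25 lipid-handling genes, 12 were lower in col LEC and 5 higher, with a median difference of -0.49. Scarb1, the receptor for high-density lipoprotein, stood at 8.03, 8.11 and 8.02 in col LEC and 12.12, 12.18 and 12.08 in BEC, a difference of -4.07 ± 0.08 (SE, adjusted p = 5.31e-11). The fatty acid-binding proteins Fabp4 and Fabp5 stood at 8.57 ± 0.17 and 6.53 ± 0.09 in col LEC and at 11.51 ± 0.32 and 9.33 ± 0.40 in BEC (mean ± SD, n = 3). Both were called lower, at -2.93 and -2.79. Gpihbp1, which anchors lipoprotein lipase in blood capillaries, differed by -1.24 ± 0.12 (adjusted p = 1.11e-05). Acaa2, an enzyme of mitochondrial fatty acid oxidation, was alike (-0.26 to 0.22). Lcn2, a carrier of small lipophilic molecules, was the member with the largest lymphatic excess (2.78 ± 0.11).

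Among 33 membrane transporters and channels, 15 were lower in col LEC, 6 were higher and 6 were alike. Aqp7, a channel for water and glycerol, stood at 6.79, 6.57 and 6.59 in col LEC and 11.34, 11.86 and 11.50 in BEC. Aqp1, a water channel, stood at 9.28, 9.10 and 9.51 in col LEC and 13.24, 13.38 and 13.31 in BEC. The drug exporter Abcb1a stood at 6.38, 6.51 and 6.53 in col LEC and 10.96, 10.51 and 10.34 in BEC. The 2 aquaporins differed in how they divided the lymphatic cells: Aqp7 was low in cap LEC as in col LEC (-0.05 ± 0.16, SE), while Aqp1 was higher in cap LEC, with a col minus cap difference of -2.07 ± 0.10 (adjusted p = 2.27e-06). Abcc4, an exporter of cyclic nucleotides and prostaglandins, differed from BEC by -2.53 ± 0.13. On the lymphatic side were the calcium-activated potassium channel Kcnn3 (2.19 ± 0.10) and the stretch-activated channel Piezo2 (1.98 ± 0.18). The glucose transporter Slc2a1 and the nucleobase transporter Slc43a3 were alike, with 95% intervals of -0.04 to 0.45 and -0.40 to 0.03, the latter called lower after cyclic loess at -0.34.

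Scavenger receptors were found on both sides. Of 15 tested, 7 were higher in col LEC and 3 lower. Colec12, a collectin-type scavenger receptor, stood at 10.16, 9.97 and 10.01 in col LEC and 7.27, 6.81 and 7.24 in BEC (2.94 ± 0.12, SE, adjusted p = 1.04e-08). Stab1 and Mrc1, endocytic receptors of lymphatic cells, differed by 1.77 ± 0.13 and 2.44 ± 0.15, and the 3 lower members were Cd36, Scarb1 and Lrp1. Coagulation genes leaned to the lymphatic side except Vwf and Thbd: of 18 tested, 9 were higher and 2 lower, with a median difference of 0.467. F2r, the thrombin receptor, stood at 9.91, 9.96 and 9.80 in col LEC and 8.68, 8.65 and 8.20 in BEC. F8, coagulation factor VIII, stood at 7.07, 7.60 and 7.34 in col LEC and 6.18, 6.22 and 6.21 in BEC. Plaur, the urokinase receptor, differed by 1.20 ± 0.19 (SE, adjusted p = 8.35e-04). Procr, the protein C receptor, and Gas6, a TAM receptor ligand, were alike, with 95% intervals of -0.12 to 0.36 and -0.20 to 0.13. Thbd was not called without col LEC replicate 1 or 3 or BEC replicate 1 or 3, with an adjusted p of up to 0.108.

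Genes of caveolae gave a mixed outcome in collecting and blood endothelial cells. Of 12 genes of caveolae and fenestrae, 6 were alike, 4 were lower in col LEC and 1 was higher. Over all genes tested 63.3% were alike, so likeness was not more common here. Calls made up 41.7% of this list against 16.3% of all genes. Cavin1, a coat protein of caveolae, was among the lower ones (-0.58 ± 0.08, SE, adjusted p = 2.10e-04). Cav1, the caveolar scaffold, had 11.38, 11.52 and 11.46 in col LEC and 11.78, 11.69 and 11.58 in BEC (95% interval -0.41 to -0.05), and Cavin2 and Cavin3, which coat caveolae, had intervals of -0.42 to -0.0035 and -0.12 to 0.32. Cav1 was called lower in col LEC after cyclic loess (-0.38), after quantile normalization (-0.31) and without BEC replicate 3 (-0.28), and Cavin2 after cyclic loess (-0.38). Ehd4 and Dysf, membrane trafficking and repair proteins, were lower, with differences of -1.51 ± 0.09 and -2.16 ± 0.17 (SE, adjusted p = 2.35e-07 and 2.33e-06). Plvap, which forms the diaphragms of fenestrae, stood at 10.12, 10.18 and 10.89 in col LEC and 10.96, 11.92 and 11.57 in BEC. Its difference (-1.09 ± 0.28, adjusted p = 0.0189) lost the call without col LEC replicate 1 (0.0738) or 2 (0.0739) and without BEC replicate 2 (0.0684) or 3 (0.071).

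VEGF and angiopoietin genes were divided between the groups. Of 17 tested, 4 were higher in col LEC, 4 lower and 6 alike. The called share was 47.1%, against 16.3% of all genes tested, of which 63.3% were alike. Flt1, the decoy VEGF receptor, stood at 6.76, 7.09 and 6.80 in col LEC and 12.13, 11.86 and 11.86 in BEC (-5.07 ± 0.26, SE, adjusted p = 4.73e-08). Flt4 ran the other way and Kdr was alike, so that the 3 VEGF receptors covered all 3 outcomes. The ligand Vegfc stood at 6.67, 6.49 and 6.79 in col LEC and 8.61, 9.05 and 9.24 in BEC (-2.32 ± 0.16). Esm1, a proteoglycan of sprouting tip cells, differed by -2.43 ± 0.12.

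Notch receptors were divided too. Of 17 genes, 3 were higher in col LEC and 8 lower, with a median difference of -0.458. Notch2 stood at 9.86, 9.95 and 9.80 in col LEC and 7.75, 7.82 and 7.72 in BEC (2.11 ± 0.11, SE, adjusted p = 3.99e-08). Notch4, the endothelial receptor, stood at 8.15, 7.99 and 7.98 in col LEC and 9.50, 9.56 and 9.47 in BEC. Notch3, which is also on the mural list, stood at 7.63, 7.54 and 7.57 in col LEC and 9.38, 9.50 and 9.21 in BEC. Notch1 was alike, as was the coactivator Maml2 (-0.06 to 0.27). The glycosyltransferase Mfng, which tunes Notch receptors, differed by -2.22 ± 0.17, and the ligands Dll4 and Jag2 by -1.01 ± 0.08 and -1.25 ± 0.07 (adjusted p = 2.23e-06 and 1.47e-07).

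In BMP and TGF-beta signalling, 9 of 31 genes were higher in col LEC, 10 lower and 10 alike. The called share was 61.3%, against 16.3% of all genes tested, of which 63.3% were alike. The ligand Tgfb3 stood at 11.86, 12.10 and 11.89 in col LEC and 9.56, 9.15 and 9.18 in BEC (2.66 ± 0.13, SE, adjusted p = 3.23e-08). Its receptor Tgfbr2 stood at 12.13, 12.28 and 12.15 in col LEC and 10.60, 10.77 and 10.80 in BEC. The target gene Id1 was lower, at 8.75, 8.88 and 8.72 in col LEC and 10.18, 10.35 and 10 in BEC. The BMP receptor Bmpr2, the ligand Tgfb1 and the ubiquitin ligase Smurf2 were alike, with 95% intervals of -0.32 to -0.02, -0.37 to 0.32 and -0.15 to 0.35. Bmpr2 was called lower after cyclic loess (-0.33) and after quantile normalization (-0.23). Smad6 and Smad7, inhibitors induced by the pathway, differed by -0.46 ± 0.09 and -0.95 ± 0.11 (adjusted p = 0.00352 and 4.46e-05).

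Guidance genes were divided, with 10 of 32 higher in col LEC, 14 lower and 5 alike. Beyond Sema3d and Sema3a, the adhesion protein Flrt2 stood at 10.44, 10.54 and 10.56 in col LEC and 7.57, 7.29 and 7.87 in BEC. Sema7a, a membrane-anchored semaphorin, stood at 8.06, 7.81 and 7.74 in col LEC and 11.61, 11.66 and 11.32 in BEC (-3.66 ± 0.15, SE, adjusted p = 7.97e-09). Sema6a was alike (0.05 to 0.41) in the values as deposited and was called higher at 0.29 without BEC replicate 3. In Wnt and planar polarity signalling 7 of 30 genes were higher, 2 lower and 15 alike. Calls made up 75% of the guidance and 30% of the Wnt list, against 16.3% of all genes tested, of which 63.3% were alike. Celsr1, a polarity cadherin, stood at 10.63, 10.82 and 10.59 in col LEC and 8.63, 8.50 and 8.64 in BEC. Rspo3, which amplifies Wnt signals, stood at 7.56, 7.35 and 7.08 in col LEC and 5.39, 5.62 and 5.40 in BEC, and was higher still in cap LEC (col minus cap -1.51 ± 0.17, SE, adjusted p = 5.13e-04). Dkk3 was higher by 1.42 ± 0.13, and the receptor Fzd4 was lower, with a difference of -0.98 ± 0.15 (adjusted p = 7.80e-06 and 5.13e-04). The co-receptors Lrp5 and Lrp6 and the polarity protein Vangl1 were alike, with 95% intervals of -0.43 to 0.07, -0.49 to -0.08 and -0.19 to 0.32. Lrp6 was called lower after cyclic loess, at -0.38, and after quantile normalization, at -0.36.

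Flow-responsive and vasoactive genes gave no single direction. Of 20 flow-responsive genes, 6 were higher in col LEC, 7 lower and 4 alike. Adm, the peptide adrenomedullin that acts on lymphatic junctions, stood at 12.65, 12.19 and 12.22 in col LEC and 10.68, 10.94 and 10.72 in BEC (1.57 ± 0.16, SE, adjusted p = 1.62e-05). Edn1, the constrictor peptide endothelin-1, stood at 7.13, 7.22 and 7.25 in col LEC and 8.24, 8.63 and 8.67 in BEC (-1.32 ± 0.14). Gja5, an arterial connexin, and Heg1, a junctional receptor, were lower, with differences of -1.84 ± 0.33 and -1.70 ± 0.10. Of 25 vasoactive genes, 3 were higher, 10 lower and 10 alike. Calls made up 65% of the flow-responsive and 52% of the vasoactive list, against 16.3% of all genes, of which 63.3% were alike. Ace, the angiotensin-converting enzyme, stood at 9.77, 9.81 and 9.42 in col LEC and 11.83, 11.84 and 11.86 in BEC. Ece1, which activates endothelin, and Ramp2, the partner of the adrenomedullin receptor, were alike, with 95% intervals of 0.04 to 0.45 and -0.41 to 0.06. Ramp2 was called lower after cyclic loess, at -0.29.

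Ribosomal protein, cell cycle and cholesterol synthesis genes gave few calls. All 12 ribosomal protein genes tested were alike, with a median difference of 0.06. Of 18 cell cycle genes, limma called 0 (1 had an unadjusted p under 0.05, Mcm6) and 6 were alike, including Pcna (-0.26 to 0.21), and of 18 cholesterol synthesis genes 11 were alike and 1 was called, the sterol carrier Stard4 (-0.50 ± 0.10, SE, adjusted p = 0.00498). Of 23 immediate early and dissociation genes, 4 were called, 8 were alike and 11 were neither. The called share of 17.4% is close to the 16.3% of all genes tested, of which 63.3% were alike. Fosb and Jun, which rise when tissue is dissociated, had intervals of -0.41 to 0.45 and -0.08 to 0.35, while the nuclear receptor Nr4a1 differed by -1.14 ± 0.20 and the chaperone Hsph1 by 1.29 ± 0.18 (adjusted p = 0.00184 and 2.98e-04). Of 27 glycolysis and hypoxia genes, 13 were alike, 9 were lower and 4 were higher, a called share of 48.1%. The glycolytic enzymes Gapdh and Pgam1 were alike, with intervals of -0.38 to 0.02 and -0.41 to 0.27, and Egln3, an oxygen-sensing hydroxylase, stood at 10.58, 10.95 and 10.89 in col LEC and 8.34, 8.48 and 8.53 in BEC. Gapdh was called lower after cyclic loess, at -0.33.

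A number of genes placed collecting cells near blood endothelium and away from lymphatic capillaries. They were picked for a called difference between col and cap LEC and a col minus BEC interval inside -1 to 1, so that the pattern itself is a description. Slco2a1, a prostaglandin transporter, stood at 9.26, 9.98 and 9.75 in col LEC, 9.62, 9.89 and 9.73 in BEC and 7.19, 7.33 and 7.41 in cap LEC. The col LEC and BEC arrays overlapped, and cap LEC lay below both (col minus cap 2.35 ± 0.19, SE, adjusted p = 7.91e-05). Adamts1, a matrix protease, stood at 9.86, 10.54 and 10.01 in col LEC, 10.45, 10.13 and 10.39 in BEC and 7.96, 7.92 and 8.24 in cap LEC. Il13ra1, a chain of the interleukin-13 receptor, stood at 9.62, 9.78 and 9.60 in col LEC, 9.91, 9.94 and 9.48 in BEC and 8.37, 8.29 and 8.02 in cap LEC. Ednrb, an endothelin receptor, had means of 10.04 ± 0.21, 10.30 ± 0.12 and 9.03 ± 0.25 in col LEC, BEC and cap LEC (SD, n = 3). In these genes pre-col LEC lay between cap and col LEC, at means of 8.04 ± 0.34, 8.85 ± 0.38, 8.75 ± 0.16 and 9.48 ± 0.10. Itga3, a laminin receptor chain, and Tm6sf1 were placed likewise, with col minus BEC intervals of -0.13 to 0.43 and 0.06 to 0.48 and col minus cap differences of 0.92 ± 0.13 and 0.89 ± 0.10 (SE). Itga3 was called higher in col LEC than in BEC without BEC replicate 3 (0.32, adjusted p = 0.0329), and Tm6sf1 with the replicate number as a block (0.27, 0.0395). Nos3, the endothelial nitric oxide synthase, was near the BEC level without reaching it, at 10, 10.14 and 9.83 in col LEC, 10.52, 10.47 and 10.37 in BEC and 8.54, 8.61 and 8.69 in cap LEC. Its col minus BEC difference (-0.46 ± 0.12, adjusted p = 0.02) was not called without col LEC replicate 1 (0.0524), col LEC replicate 3 (0.0924) or BEC replicate 1 (0.0585).

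Other genes were shared by being low. Antxr2, a receptor for collagen fragments, stood at 7.14, 7.44 and 6.93 in col LEC, 6.70, 7.12 and 7.22 in BEC and 10.13, 9.39 and 9.49 in cap LEC (col minus cap -2.50 ± 0.22, SE, adjusted p = 1.26e-04). Shc3, a signalling adaptor, stood at 7.02, 7.06 and 7.18 in col LEC, 6.99, 6.84 and 7.51 in BEC and 8.77, 9.35 and 9.39 in cap LEC. Syne1, a nuclear envelope protein, stood at 8.24, 8.23 and 8.35 in col LEC, 8.64, 7.84 and 8.10 in BEC and 9.41, 9.23 and 9.34 in cap LEC. In each of them the cap LEC arrays all lay above the arrays of the other 2 groups. Ackr2, a chemokine-degrading receptor, Itih3, a hyaluronan-binding chain, Cyp2ab1 and Tppp3, a tubulin-binding protein, had col minus cap differences of -1.23 ± 0.19, -1.67 ± 0.17, -1.36 ± 0.25 and -1.12 ± 0.09 (SE). Their col minus BEC intervals were 0.10 to 0.93, 0.13 to 0.86, -0.59 to 0.51 and -0.38 to -0.01. Itih3 was called higher in col LEC than in BEC after quantile normalization (0.54, adjusted p = 0.0495), under the block (0.50, 0.0353) and without col LEC replicate 3 (0.61, 0.0445), and Ackr2 without col LEC replicate 1 (0.67, 0.0401). Most of these levels are in the range of the negative controls, so that a low level shared by the 2 groups is only a bound.

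**Figure D5:**
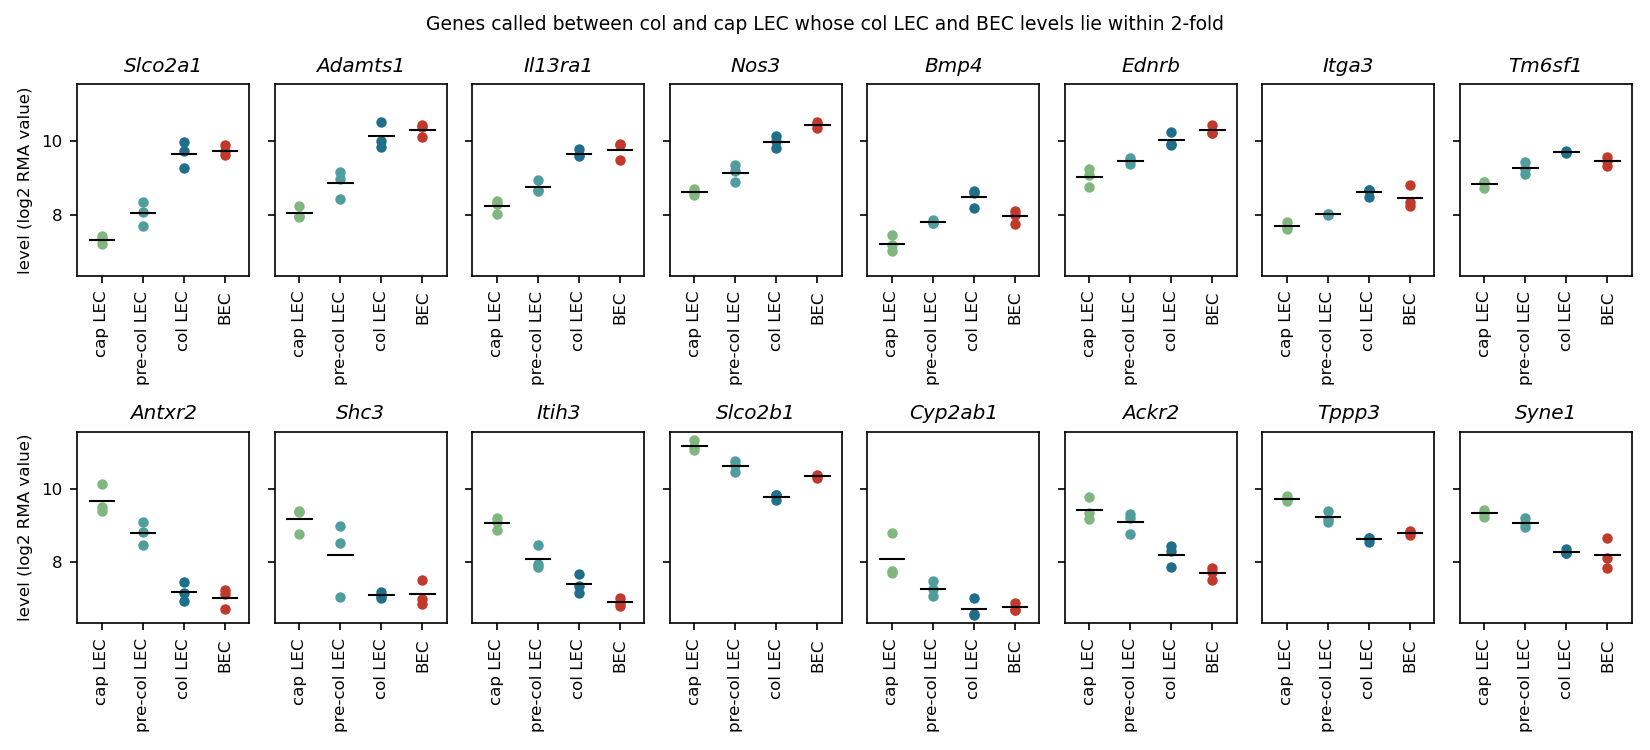
Each panel is 1 gene, with the log2 RMA value on the y axis, 3 arrays per group as points and the group mean as a bar, for cap LEC, pre-col LEC, col LEC and BEC. The upper row shows genes higher in col than in cap LEC and the lower row genes lower, all picked for a col LEC level near that of BEC. Slco2a1 rises from a mean of 7.31 in cap LEC to 9.66 in col LEC beside 9.75 in BEC.

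A smaller number of genes set collecting cells apart from every other group. Each had to be called against BEC, cap LEC and pre-col LEC at once, a criterion that carries no single p. Parm1 stood at 9.91, 10.14 and 9.89 in col LEC, 8.43, 8.74 and 8.53 in BEC, 7.92, 7.94 and 7.88 in cap LEC and 8.63, 8.47 and 8.50 in pre-col LEC. Itih2, a hyaluronan-binding serum protein chain, stood at 8.80, 8.41 and 8.23 in col LEC, 6.67, 6.66 and 6.60 in BEC, 6.85, 7.03 and 7.06 in cap LEC and 7.18, 7.41 and 7.28 in pre-col LEC. The lowest col LEC array of both genes was above every other array. Of the genes named in this paragraph, Itih2, Ahsg, Lsr, Pcdh7, Gata6 and Foxp2 had mean levels under 8.917 in both col LEC and BEC. Tgfa, a ligand of the EGF receptor, exceeded BEC by 1.53 ± 0.11, cap LEC by 1.08 ± 0.11 and pre-col LEC by 0.83 ± 0.11 (SE). Ahsg, the serum glycoprotein fetuin-A, exceeded them by 1.52 ± 0.16, 1.54 ± 0.16 and 1.33 ± 0.16. Lsr, a protein of contacts where 3 cells meet, exceeded them by 0.97 ± 0.12, 1.24 ± 0.12 and 0.91 ± 0.12. Prr15 exceeded them by 2.25 ± 0.12, 1.47 ± 0.12 and 0.75 ± 0.12. Pcdh7, Adm, Gata6 and Foxp2, given above against BEC, were also in this set of 14 genes, of which 10 are named, with differences from pre-col LEC of 1.39 ± 0.14, 1.18 ± 0.16, 0.82 ± 0.12 and 0.61 ± 0.10.

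Collecting cells were lowest of all groups in the water channel Aqp1, with cap LEC at 11.44, 11.25 and 11.42 and pre-col LEC at 11.25, 11.13 and 11.14. Dysf, a membrane repair protein, stood at 8.04, 8.73 and 8.69 in col LEC, 10.81, 10.68 and 10.46 in BEC, 10.13, 10.12 and 9.96 in cap LEC and 9.38, 9.80 and 9.59 in pre-col LEC. Ablim3, an actin-binding protein, stood at 8.86, 8.67 and 9.06 in col LEC, 11.01, 10.98 and 10.91 in BEC, 10.34, 10.39 and 10.29 in cap LEC and 9.74, 9.88 and 10.07 in pre-col LEC. For these genes every lymphatic group lay below BEC, and col LEC lay below the other lymphatic groups without overlap. The order was different for Enpp3, an enzyme that cleaves extracellular nucleotides, and Slco2b1, a transporter of organic anions, where BEC lay between col and cap LEC. Enpp3 stood at 9.70, 9.88 and 9.93 in col LEC, 10.53, 10.73 and 10.64 in BEC and 12.07, 11.73 and 11.74 in cap LEC. Slco2b1 stood at 9.82, 9.83 and 9.70 in col LEC, 10.35, 10.37 and 10.30 in BEC and 11.32, 11.07 and 11.15 in cap LEC. Hecw2, a ubiquitin ligase, and Itih5, a hyaluronan-binding chain, were lower in col LEC than in BEC, with differences of -2.46 ± 0.14 and -1.95 ± 0.19 (SE). Rgs2, Synm and Fyn differed from BEC by -0.73 ± 0.14, -0.75 ± 0.09 and -0.50 ± 0.08 (adjusted p = 0.00232, 7.65e-05 and 5.93e-04) and from pre-col LEC by -0.85 ± 0.14, -0.66 ± 0.09 and -0.43 ± 0.08 (adjusted p = 0.0252, 0.00987 and 0.0476).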

How the data were processed

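Biotin-labelled cDNA amplified from 500 pg of total RNA per sample was measured on whole-transcript arrays, per the labels' protocols. The authors deposited log2 values made with RMA, per the submitters' processing notes, with software version, annotation and build not given in the sources used here. RMA brings arrays to a common distribution, which hides changes in total RNA per cell. Of 72688 rows, 31258 named 1 gene in the platform annotation and 1492 named several and were not used. The brightest row stood for each of 30703 genes. The 19667 genes above the array median on at least 3 of 12 arrays were tested. Ccl21a, Egfl7 and Nrp1 had no row of their own. No coordinates are given.

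Group means of all 12 arrays were fitted with limma 3.58.1 (statmod 1.5.0, R 4.3.3), using lmFit and eBayes, with two-sided tests and Benjamini-Hochberg adjustment over all genes tested. Prior and residual degrees of freedom were 3.63 and 8. Intervals are moderated 95% intervals and errors of differences are moderated standard errors. On simulated data, 90% of 100 genes changed by 1 and 100% of 100 changed by 2 were recovered, with 8 false calls. The simulation gave each gene independent normal noise around a common mean, with changes in col LEC only. It held no shifts shared by many genes on an array, so these rates hold for that setting only. The number of arrays limits the precision. A list's summed level is the log2 of the sum of its members' linear values. Tables and plots used pandas 2.3.3 and matplotlib 3.10.9 (Python 3.11.15).

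The comparison, its gene lists and the alternatives were chosen with earlier results of these data known. The naming rule took the sort genes, 14 genes on each side with the widest called difference and no overlap between arrays, up to 4 called and 3 bright alike members of each list, up to 10 higher and 10 lower in col LEC than in each other group, up to 8 each way called against cap LEC with a col minus BEC interval inside -1 to 1, and up to 8 with opposite calls against BEC in col and cap LEC. Predicted genes were left out. Further list members named in the text were chosen after their values were seen. Alternatives were the 6 arrays alone, cyclic loess, quantile normalization, array weights, no filter and a stricter one. Others were the mean of a gene's rows, a replicate block, a variance trend, a test against 2-fold, and leaving out each of the 6 arrays.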

Additional observations from a re-analysis of the deposited data

Results flagged for a closer look

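For 8 of the named genes the difference from BEC was called in col LEC and in cap LEC with opposite signs. The 2 differences share the BEC arrays, so that they differ by the col minus cap LEC contrast of the same limma fit, in which BEC cancels. The genes were picked for opposite calls and ranked by that contrast, so its sign was fixed and a large size was favoured. Its adjusted p-values are therefore given as a description and support nothing further. Parm1 was above BEC in col LEC (1.41 ± 0.10, SE) and below it in cap LEC (-0.65 ± 0.10), with a col minus cap difference of 2.07 ± 0.10 (adjusted p = 2.27e-06). Gata6 was likewise above BEC in col LEC (0.91 ± 0.12) and below it in cap LEC (-0.41 ± 0.12), a difference of 1.32 ± 0.12 (adjusted p = 1.29e-04). Odc1, the first enzyme of polyamine synthesis, stood at 10.70, 10.88 and 10.88 in col LEC, 10.05, 10.26 and 9.82 in BEC and 9.10, 9.39 and 9.37 in cap LEC, a difference of 1.53 ± 0.14 (adjusted p = 1.50e-04). Bmp4, a ligand of the BMP pathway, stood at 8.64, 8.18 and 8.59 in col LEC, 7.75, 8.10 and 8.0 in BEC and 7.45, 6.99 and 7.17 in cap LEC, a difference of 1.27 ± 0.14 (adjusted p = 7.20e-04). Mfap2, a microfibril protein, had a difference of 0.84 ± 0.12 (adjusted p = 0.00331).

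In the other direction, Enpp3 was below BEC in col LEC (-0.80 ± 0.11, SE) and above it in cap LEC (1.21 ± 0.11), a difference of -2.01 ± 0.11 (adjusted p = 4.08e-06). Slco2b1 showed -0.56 ± 0.09 and 0.84 ± 0.09, a difference of -1.40 ± 0.09 (adjusted p = 2.49e-05). Rab31, a trafficking GTPase, showed -0.42 ± 0.13 and 0.45 ± 0.13, a difference of -0.87 ± 0.13 (adjusted p = 0.00408). The col minus BEC calls of Bmp4, Mfap2 and Rab31 were the least secure, at adjusted p = 0.0279, 0.0285 and 0.042. That of Bmp4 was lost when any of 4 arrays was left out (col LEC replicates 1 and 3, BEC replicates 1 and 3), with an adjusted p of up to 0.108. That of Mfap2 was lost without any of 5 arrays (all but col LEC replicate 1), with an adjusted p of up to 0.124, and that of Rab31 without any of 4 (col LEC replicates 1 and 2, BEC replicates 2 and 3), with an adjusted p of up to 0.169.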

How the results depend on the processing

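With 3 arrays per group, the count of genes called between col LEC and BEC, 3203, ranged from 2499 to 3361 when 1 of the 6 arrays was left out, the count called at least 2-fold (980) from 978 to 997 and the count alike (12454) from 11014 to 12079. The 6 arrays alone gave 2547 calls, of which 2463 were among the 3203. The share of calls higher in col LEC, 51.2%, was 42.6% after cyclic loess, 47.1% after quantile normalization and 57.4% with a stricter filter, which moved the median difference to 0.071. Genes alike numbered 22598 of 30703 with no filter, 12454 of 19667 in the main fit and 6188 of 11818 with the stricter filter. The share alike thus fell as more genes at low levels were left out, and it was 53.7% above the upper quartile of mean level. Tested against a 2-fold difference with limma's treat, 475 genes were called (194 higher and 281 lower) in place of 980. With the replicate number as a block, 3239 genes were called, 3023 of them shared with the fit without it. The numbers were not taken to pair the samples: deviations of same-numbered arrays correlated at -0.0719, 0.147 and -0.0929, and 2 of 6 arrays correlated best with their own number. Under the block the call of Pecam1 was lost (adjusted p = 0.0574), as was that of the stress-response gene Ier3 (0.0542), while Tm6sf1 and Itih3 gained one. Ier3 also lost its call without any 1 of the 6 arrays (adjusted p up to 0.154), after cyclic loess (0.0816) and quantile normalization (0.0785) and with no filter (0.0691). Of all 3203 calls, 2424 were kept without col LEC replicate 3 and 2786 without BEC replicate 2, the extremes of leaving out 1 array. Of 121 named genes called, 112 were called in every one of 15 alternatives in which they were tested. Many of them were named for the size of their difference, which favours such stability. Genes at low levels, such as Itga2, were not tested under the stricter filter. Of the named genes 0 reversed. With the 6 arrays alone Pecam1 (0.136), Bmp4 (0.0652) and Rab31 (0.122) lost their calls too. Bmp4 (0.0822) and Rab31 (0.107) also lost theirs with array weights, and Rab31 with no filter (0.0555). Pfkfb3 lost its call without col LEC replicate 3 (adjusted p = 0.0865) and with the 6 arrays alone (0.0726), Nr4a3 without col LEC replicate 1 (0.0896), with the 6 arrays alone (0.0821) and with array weights (0.0836), and the cause was not tested. The negative-control signal limits what can be said of weakly expressed genes.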
